A study of Homo sapiens with 9 samples.

Results

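The genes described here encode the collagens, the laminins and a set of matrix glycoproteins and proteoglycans, measured by RNA-seq in OVCAR3 cells in which the amount of *CTCFL* was changed. They were chosen by symbol alone, as the protein-coding genes named COL, a number and A with a number, the LAMA, LAMB and LAMC genes, and 18 named genes, *NID1*, *NID2*, *HSPG2*, *AGRN*, *FN1*, *FBN1*, *FBN2*, *FBLN1*, *FBLN2*, *FBLN5*, *SPARC*, *BGN*, *DCN*, *LUM*, *VCAN*, *TNC*, *ELN* and *POSTN*. This gave 74 matrix genes among the 60660 genes of the count matrix, of which 44 are collagens and 12 are laminins. OVCAR3 is an established cell line derived from a high-grade serous ovarian carcinoma, and CTCFL, also called BORIS, is a zinc-finger DNA-binding protein and the paralog of CTCF. All cells were grown with 20% fetal bovine serum. The Control group (labelled as untreated for *CTCFL*) received a LacZ plasmid according to the methods, and the CTCFL-OE group a plasmid with the *CTCFL* open reading frame, pCpGfree-vitroHBORIS. Both received 2 µg of plasmid and were harvested after 48 h. The CTCFL-KD group had *CTCFL* lowered with siRNA in an earlier, separate experiment and has no control of its own among these libraries. In that group the effects of the siRNA and of the separate experiment cannot be told apart. There were 3 biological replicates per group, each pooled from 3 technical replicates of the same line, and both comparisons with Control use the same 3 Control libraries.

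The extracellular matrix is built from large secreted proteins that assemble outside the cell. Fibrillar collagens form the fibres of connective tissue, and FACIT collagens attach to the surface of these fibres. Collagen IV and laminins form the separate networks of the basement membrane, the sheet on which epithelial cells rest, and nidogens, perlecan (*HSPG2*) and agrin (*AGRN*) link them. Each laminin is a trimer of 1 alpha, 1 beta and 1 gamma chain, so the chains a cell transcribes limit the laminins it can make. Epithelial cells are known mostly for basement membrane proteins and fibroblasts for fibrillar collagens, and ovarian carcinoma cells that spread in the abdomen meet a matrix rich in collagens and fibronectin (*FN1*).

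Each library held between 14332622 and 24490080 counts in total. Levels are counts per 1000000 counts of the TMM-scaled library size (CPM), and 3 counts, which is as much as a library with 0 counts allows, equalled 0.117 CPM in the deepest library and 0.271 CPM in the shallowest. *CTCFL* itself was counted 6, 9 and 10 times in Control, whereas the CTCFL-OE libraries held 36, 34 and 72 counts and those of CTCFL-KD 0, 1 and 0. The epithelial identity of the line was visible in all groups, since all 11 genes of an ovarian carcinoma epithelium list had at least 1 CPM in each group. Their summed level ran from 6033 to 6146 CPM in Control, from 5236 to 5632 CPM after overexpression and from 10402 to 17611 CPM after knockdown. None of the 11 passed the test in CTCFL-OE, while in CTCFL-KD 8 rose, among them the keratin genes *KRT8* and *KRT18* and the mucin gene *MUC16*, and 2 fell, *KRT7* and *WT1*. Over all genes tested, 3.15% passed in CTCFL-OE and 38.2% in CTCFL-KD, 21.4% higher and 16.8% lower. Of 16 fibroblast genes outside the matrix set, 4 reached a mean of 1 CPM in Control and in CTCFL-OE, namely *MFAP5*, *CCDC80*, *TAGLN* and *C1S*, and in CTCFL-KD *SFRP2* took the place of *MFAP5*. The genes *DPT*, *CDH11*, *PRRX1* and *TCF21* had 0 counts in all 9 libraries. The summed level of these 16 genes ran from 59.0 to 67.1 CPM in Control, from 103 to 145 CPM after overexpression and from 131 to 138 CPM after knockdown. Most of that sum was *CCDC80*, which encodes a secreted matrix-binding protein, with a mean of 39.4 CPM in Control, against 80.1 after overexpression and 112 after knockdown. Of the 6 fibroblast genes tested, 2 passed the test in CTCFL-OE, *CCDC80* and *C1S*, both higher, and 2 in CTCFL-KD, *CCDC80* higher and *MFAP5* lower, and the share of the 6 that passed in CTCFL-KD was near that of all genes. Lists of endothelial and leukocyte genes summed to at most 26.6 and 3.34 CPM in any library. Of the 5 genes of these lists that were tested, *VWF* was higher in CTCFL-OE, and in CTCFL-KD *CD14* was higher and *PECAM1* and *CSF1R* were lower, the last with 0 counts in each CTCFL-KD library. The share of mitochondrial counts was 6.16% to 6.52% in Control. In replicate order it was 7.40%, 12.4% and 14.9% after overexpression and 11.8%, 9.64% and 7.80% after knockdown. The part of these list levels and shares in the results below was not tested.

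The libraries within the altered groups differed in how they covered the matrix genes. CTCFL-OE replicate 1 was the lowest library of its group in 41 of the 55 matrix genes tested, and replicate 3 was the highest in 45. In CTCFL-KD, replicate 1 was the lowest in 31 of the 55 genes and the highest in 18. The log2 ratio of that library to its group fell with transcript length, with a Spearman correlation of -0.579 across 13537 genes, against 0.55 and 0.536 in the other replicates. Control replicate 1, which enters both comparisons with Control, had the same direction, at -0.32 against 0.107 and 0.22, and the CTCFL-OE libraries lay between -0.0879 and 0.0692. The matrix genes tested have a median transcript length of 6422 bases against 3304 bases for all genes tested, and the part of length in the results was not tested beyond the fits with length and GC offsets. Without CTCFL-KD replicate 1, edgeR called 42 of 60 matrix genes tested in CTCFL-KD vs Control, including 36 of the 38 called with all libraries, and 49.9% of all genes against 38.2% with all libraries. The calls of *BGN* and *NID2* were lost, and *AGRN*, *HSPG2*, *LAMC1* and *NID1* passed, as did *COL13A1* and *COL5A3*, which were not tested with all libraries. Between CTCFL-KD and CTCFL-OE the same omission raised the calls from 26.8% to 39.7% of all genes and gave 37 matrix genes, which held all 30 and added *COL1A1*, *COL5A3*, *COL12A1*, *COL16A1*, *COL25A1*, *LAMB1* and *LAMC1*.

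In Control cells the matrix genes together made up 0.648 ± 0.0311% (SD, n = 3) of all counts, and 49 of them had at least 1 CPM in each library. Their summed level was 6199.5 ± 290.3 CPM in Control, which compares with 8733 ± 2076 CPM after overexpression and 9449.6 ± 1216 CPM after knockdown. The lowest CTCFL-OE library, at 6456 CPM, lay inside the Control range of 5912 to 6492 CPM, while the lowest CTCFL-KD library, at 8049 CPM, lay above it. That library, CTCFL-KD replicate 1, had the lowest TMM factor, 0.775, and without TMM scaling its matrix genes made up 0.623% of all counts, inside the Control range of 0.621% to 0.682%. The matrix share was 0.701% to 0.993% in CTCFL-OE and 1.02% and 1.04% in the other CTCFL-KD libraries. Levels of different genes were compared per kilobase of the longest annotated transcript. On this scale *AGRN*, a heparan sulphate proteoglycan of the basement membrane, ranked highest of the matrix genes in every group, with 182 ± 2.83 CPM per kilobase in Control, against 252 ± 67.4 after overexpression and 285 ± 13.2 after knockdown. The laminin alpha chain genes *LAMA3* and *LAMA5* followed in Control with 77.3 ± 6.06 and 73.7 ± 2.70 CPM per kilobase, which did not differ beyond their spread. Next came *COL18A1*, the precursor of endostatin, with 62.6 ± 1.44, the shared gamma chain gene *LAMC1* with 43.4 ± 3.61 and *COL26A1* with 41.01 ± 0.617 CPM per kilobase. Among the fibrillar collagens *COL1A1* had 5.03 ± 0.497 CPM per kilobase in Control and *COL5A2*, the highest of them over all 9 libraries through its level in CTCFL-KD, had 1.30 ± 0.0841. *COL1A2*, a chain of collagen I, the main fibre-forming collagen of connective tissue, had no count in any Control library.

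After *CTCFL* overexpression most matrix genes did not pass the test, while *LAMA1*, *LAMC3*, *COL26A1* and *COL11A2* rose and the adhesion protein genes *FN1* and *COL17A1* fell, though these calls depended on single libraries. In CTCFL-OE, 9 of the 55 matrix genes tested passed the adjusted p of 0.1, with 7 higher and 2 lower than in Control. Over all 17794 genes tested, 3.15% passed, 1.99% higher and 1.16% lower. With a log2 fold change beyond 1 added as the definition of a DEG, 6 matrix genes remained, 4 of them higher and 2 lower, where 2.07% of all genes were DEGs, 1.37% higher and 0.702% lower. In 27 of the 55 genes the 3 CTCFL-OE libraries lay beyond all 3 Control libraries, 23 of them on the higher and 4 on the lower side, against 37.1% of all genes, 16.3% on the higher and 20.8% on the lower side. The median log2 fold change of the 55 genes was 0.59, and that of all genes tested was -0.01. All p-values come from the quasi-likelihood test of edgeR, with the Benjamini-Hochberg adjustment over all genes tested, and are called the edgeR adjusted p from here on. No CTCFL-OE call remained when any 1 Control library, or CTCFL-OE replicate 2 or 3, was left out, where edgeR gave 0 matrix genes past the adjusted p and between 18 and 25 at an unadjusted p under 0.05. These fits called between 0.24% and 0.635% of all genes. Without CTCFL-OE replicate 1 edgeR called 27 of 57 matrix genes, 25 of them higher, including all 9 called with all libraries, and 15.1% of all genes, so the calls moved over the whole transcriptome and not in the matrix genes alone.

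In CTCFL-KD the changes were larger and went both ways, with several collagens that were near 0 in Control at clear levels and with the epithelial adhesion genes *LAMA3* and *COL17A1* down. In this group, 38 of the 55 genes passed the adjusted p of 0.05, 29 higher and 9 lower than in Control. Since 38.2% of all genes passed, 21.4% higher and 16.8% lower, a call in this comparison was common among genes of any kind. There were 34 DEGs among the matrix genes, 26 higher and 8 lower, against 23.2% of all genes, 15.3% higher and 7.94% lower. The CTCFL-KD libraries did not overlap with the Control libraries in 44 of the 55 genes, 31 of them on the higher and 13 on the lower side, against 56.3% of all genes, 28.7% on the higher and 27.6% on the lower side. The median log2 fold change was 0.94 for the matrix genes and 0.08 for all genes tested. In bulk RNA, fewer cells of a type and less RNA per cell cannot be told apart.

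**Figure D1:**
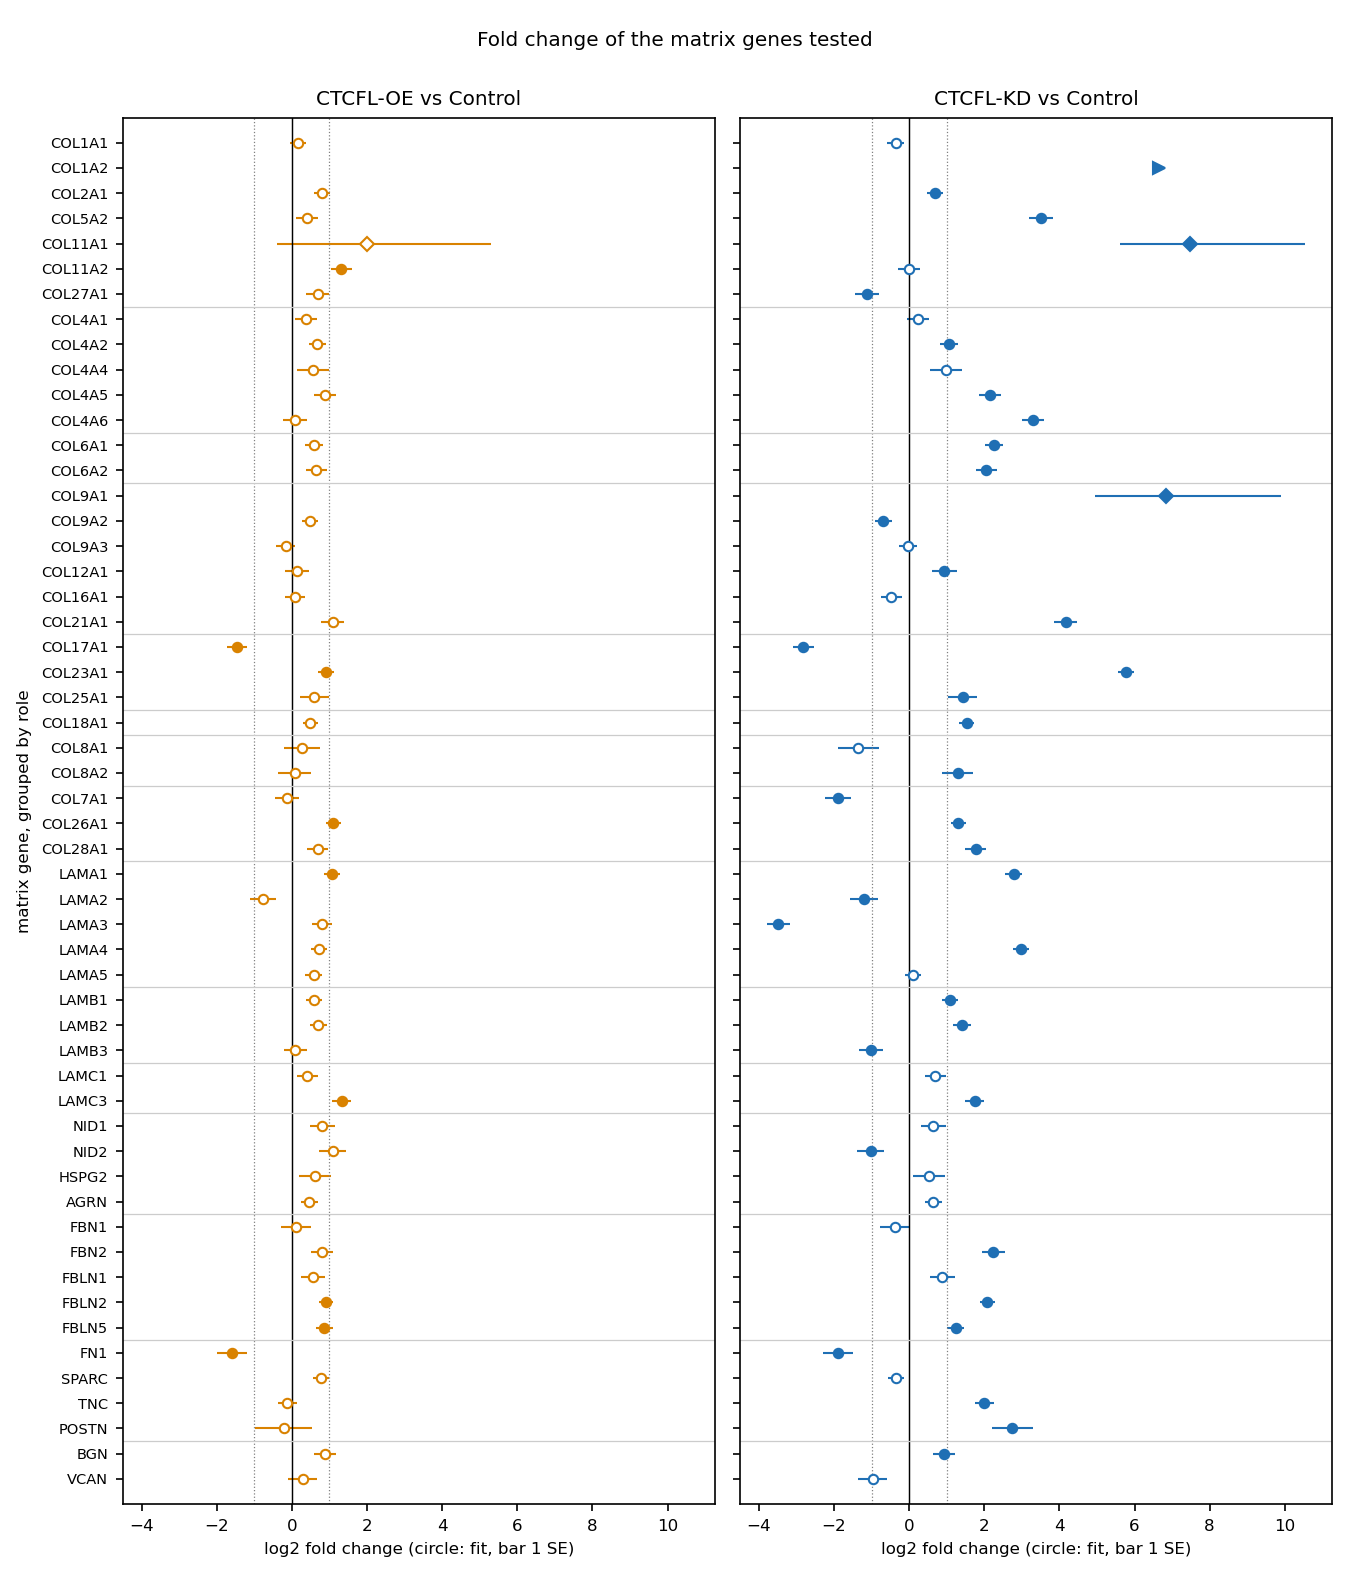
Log2 fold change of the matrix genes tested (x axis) in CTCFL-OE (left) and CTCFL-KD (right) against Control, grouped by role (grey lines) with the gene on the y axis. Circles with bars are the edgeR fit with 1 SE, diamonds with bars are ratios of summed counts with a 95% counting interval for genes with 3 counts or fewer in 1 of the groups compared, the triangle is the lower bound of COL1A2, filled symbols passed the adjusted p (0.1 left, 0.05 right), and genes with 3 counts or fewer in each library of both groups are not drawn. In CTCFL-OE most points lie between 0 and 1, and in CTCFL-KD they spread in both directions.

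The Control libraries are shared by the comparisons, so the values of the 5 matrix genes that were DEGs in both comparisons are given side by side. *LAMA1*, the alpha chain of laminin-111, the laminin of the early embryo, lies at chr18:6941742-7117797 of GRCh38. Its libraries had 15.5, 19.4 and 15.3 CPM in Control, against 32.1, 34.7 and 38.5 after overexpression and 85.3, 119.9 and 141 after knockdown, in replicate order. No library of *LAMA1* in one group overlapped with those of another. The log2 fold change of *LAMA1* was 1.07 (SE 0.21, edgeR adjusted p = 0.0431) in CTCFL-OE and 2.79 (SE 0.22, edgeR adjusted p = 1.1e-05) in CTCFL-KD. Exons of other genes on the opposite strand cover 11.1% of the exon bases of *LAMA1*, and the strand setting of the counting is not given in the sources used here.

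*LAMC3*, a laminin gamma chain, had 12.3, 13.4 and 12.9 CPM in Control, against 20.1, 37.2 and 39.9 after overexpression and 52.5, 36.98 and 39.9 after knockdown. All altered libraries lay above all Control libraries, with CTCFL-OE replicate 1 nearest to them. Its log2 fold changes were 1.33 (SE 0.26, edgeR adjusted p = 0.0392) in CTCFL-OE and 1.74 (SE 0.26, edgeR adjusted p = 0.000519) in CTCFL-KD. *COL26A1*, a collagen first described in testis and ovary, had 120.2, 122 and 124 CPM in Control, against 217, 256 and 314 after overexpression and 360.3, 267 and 283 after knockdown. Every altered library of *COL26A1* exceeded every Control library, and the altered groups overlapped each other. The log2 fold changes of *COL26A1* were 1.10 (SE 0.20, edgeR adjusted p = 0.0290) in CTCFL-OE and 1.31 (SE 0.20, edgeR adjusted p = 0.000586) in CTCFL-KD.

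Motif matches for CTCFL are listed by the study near these genes, and both are shown here because *COL26A1* and *LAMC3* rose in both altered groups. The study searched for motifs only in promoters of genes that were DEGs in both of its comparisons with Control. A change in both groups was thus a condition for being listed. The genes it names with a ChIP-seq peak at such a site do not include *COL26A1* or *LAMC3*. The windows are on the plus strand of GRCh38, with the listed site in capitals and 60 bases on each side. The *COL26A1* window is chr7:101362748-101362875, and its site, AGGGGGCG on the minus strand, lies 60 bases before the annotated start of the gene. The *LAMC3* window is chr9:131008505-131008632, and its site, AGGGGGCA on the plus strand, lies 602 bases before the start.
COL26A1: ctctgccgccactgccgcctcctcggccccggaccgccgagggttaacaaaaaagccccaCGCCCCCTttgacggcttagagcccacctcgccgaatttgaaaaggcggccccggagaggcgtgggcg
LAMC3: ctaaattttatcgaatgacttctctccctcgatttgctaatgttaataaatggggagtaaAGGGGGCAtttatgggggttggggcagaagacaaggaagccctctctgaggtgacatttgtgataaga

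The other genes that were DEGs in both comparisons were lower in the altered groups. *COL17A1* encodes the transmembrane collagen of hemidesmosomes, the junctions that anchor epithelial cells to the basement membrane, and lies at chr10:104031286-104085880. It had 16.3, 18.3 and 15.3 CPM in Control, against 8.03, 3.92 and 6.08 after overexpression and 1.71, 2.79 and 2.46 after knockdown. The 3 groups of *COL17A1* did not overlap, with Control highest and CTCFL-KD lowest. Its log2 fold changes were -1.47 (SE 0.26, edgeR adjusted p = 0.0289) and -2.82 (SE 0.29, edgeR adjusted p = 4.7e-05). *FN1*, encoding fibronectin, which binds integrins and collagens, had 311, 390.3 and 356 CPM in Control, against 50.4, 133 and 166 after overexpression and 59.7, 109 and 114 after knockdown. All altered libraries of *FN1* were below all Control libraries, and the altered groups overlapped. The log2 fold changes of *FN1* were -1.60 (SE 0.39, edgeR adjusted p = 0.0795) and -1.90 (SE 0.39, edgeR adjusted p = 0.00365). The rank of *FN1* per length among the 74 genes went from 7 in Control to 18 in CTCFL-OE and 24 in CTCFL-KD.

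*COL11A2*, a chain of the cartilage-type fibrillar collagen XI, was a DEG in CTCFL-OE alone, with 1.75, 2.64 and 1.72 CPM in Control and 4.01, 5.28 and 6.15 CPM in CTCFL-OE. The CTCFL-OE libraries all lay above the Control libraries, and the log2 fold change was 1.32 (SE 0.29, edgeR adjusted p = 0.0586). In CTCFL-KD it had 1.80, 2.79 and 1.53 CPM, which overlapped with Control, and the direct comparison of CTCFL-KD with CTCFL-OE gave -1.32 (SE 0.30, edgeR adjusted p = 0.00832). The fibulin genes *FBLN2* and *FBLN5*, whose proteins bind elastic fibres and basement membranes, and the transmembrane collagen gene *COL23A1* passed the adjusted p in CTCFL-OE with less than a doubling, with log2 fold changes of 0.91, 0.86 and 0.91. With the replicate number as a block, *FBLN5* did not pass (edgeR adjusted p = 0.138).

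**Figure D2:**
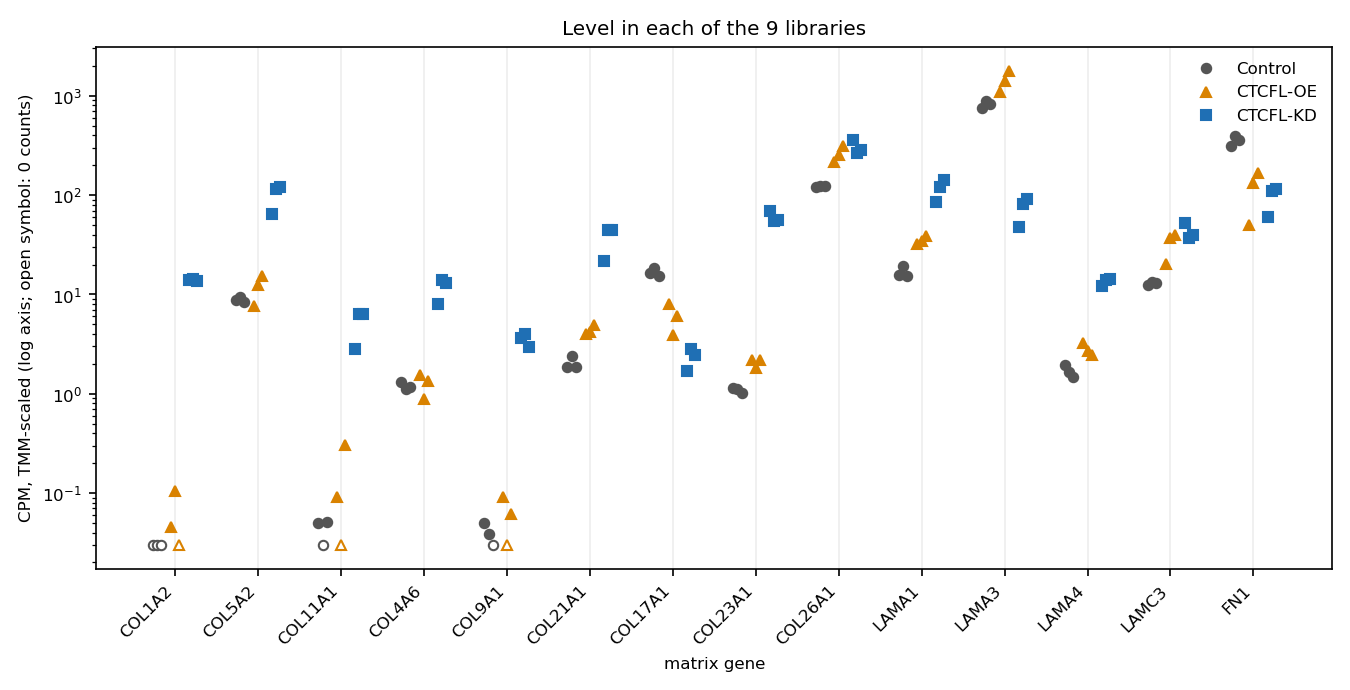
Level of 14 matrix genes in each of the 9 libraries (y axis, CPM on a log scale), with the groups Control, CTCFL-OE and CTCFL-KD shown by colour and open symbols for 0 counts. LAMA1 and COL26A1 sit above Control in both altered groups, COL17A1 and FN1 sit below it, and COL1A2 has 0 counts in all Control libraries and 13.5 to 14.2 CPM in CTCFL-KD.

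Among the 7 fibrillar collagens tested, 4 rose and 1 fell in CTCFL-KD, where 21.4% of all genes were higher and 16.8% lower. *COL1A2*, which encodes the second chain of collagen I and lies at chr7:94394895-94431227, had 0 counts in each Control library, 1, 2 and 0 counts in CTCFL-OE and 156, 239 and 247 counts in CTCFL-KD. In CPM the CTCFL-KD libraries had 14.1, 14.2 and 13.5, at least 99.8-fold higher than Control when a count of 0 is set to 3 counts per library (edgeR adjusted p = 3.9e-06). *COL1A1*, the other chain of collagen I, was present in Control at 32.00, 30.9 and 26.4 CPM and had 26.1, 22.4 and 21.3 CPM in CTCFL-KD, with a log2 fold change of -0.36 (SE 0.22, edgeR adjusted p = 0.221). Per length, the RNA ratio of *COL1A1* to *COL1A2* was therefore 1.88, 1.60 and 1.60 in the CTCFL-KD libraries. Collagen I protein holds 2 chains of *COL1A1* for each chain of *COL1A2*, and an RNA ratio does not measure protein chains. No ratio can be given in Control.

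*COL5A2*, a chain of collagen V, which starts the assembly of collagen I fibrils, had 8.71, 9.48 and 8.36 CPM in Control, against 7.62, 12.4 and 15.2 after overexpression and 64.4, 116 and 122 after knockdown. The CTCFL-OE libraries overlapped with Control and the CTCFL-KD libraries lay far above both, with CTCFL-KD replicate 1 the lowest of the 3. The log2 fold change in CTCFL-KD was 3.51 (SE 0.31, edgeR adjusted p = 2.1e-05). *COL5A2* made up 13.3 ± 0.772% (SD, n = 3) of the summed fibrillar collagen level per length in Control and 57.5 ± 9.43% in CTCFL-KD, while *COL1A1* went from 51.3 ± 1.85% to 16.2 ± 4.92%. Its usual partner *COL5A1* had 1 count in 1 Control library and 0 counts elsewhere.

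*COL11A1*, a chain of collagen XI, had 1, 0 and 1 counts in the Control libraries and 2.80, 6.36 and 6.30 CPM in CTCFL-KD. With so few counts in Control, the ratio of summed counts was 179, with a 95% counting interval of 49.1 to 1489 (edgeR adjusted p = 5.8e-05). *COL2A1*, the collagen of cartilage, rose by less than a doubling in CTCFL-KD with a log2 fold change of 0.69 (SE 0.22, edgeR adjusted p = 0.0283), a call lost without Control replicate 1 or 3 (edgeR adjusted p of 0.0982 and 0.121). *COL27A1*, a fibrillar collagen of developing cartilage, fell from 13.2 ± 1.48 to 5.996 ± 2.28 CPM (SD, n = 3), with a log2 fold change of -1.12 (SE 0.32, edgeR adjusted p = 0.0184). This call was lost without Control replicate 1 or 2, where the edgeR adjusted p was 0.0519 and 0.0543.

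Collagen IV is the network-forming collagen of basement membranes, and its 6 genes lie in 3 head-to-head pairs. In CTCFL-KD 3 of the 5 tested chains rose and none fell, beside 21.4% and 16.8% of all genes. *COL4A1* and *COL4A2* encode the chains of the common network and their annotated spans on chromosome 13 overlap by 1346 bases at the start. *COL4A2* rose from 218 ± 9.13 CPM in Control to 453 ± 29.96 CPM in CTCFL-KD, with a fitted log2 difference of 1.05 (SE 0.24, edgeR adjusted p = 0.00592). *COL4A1* had 159 ± 10.6 and 188 ± 68.9 CPM, which did not pass the test, with a log2 fold change of 0.24 (SE 0.29, edgeR adjusted p = 0.547). The level of *COL4A2* per length relative to *COL4A1* was 1.44, 1.36 and 1.38 in Control, against 1.61, 1.82 and 1.74 after overexpression and 3.86, 2.01 and 2.20 after knockdown, and the 3 groups did not overlap. The highest of these ratios was in CTCFL-KD replicate 1.

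*COL4A5* and *COL4A6* encode chains of a second network and share a promoter region on the X chromosome, with starts 341 bases apart. *COL4A6* had 1.30, 1.13 and 1.16 CPM in Control, against 1.55, 0.888 and 1.35 after overexpression and 8.03, 14.1 and 13.04 after knockdown. Its CTCFL-OE libraries overlapped with Control, its CTCFL-KD libraries lay above both, and its log2 fold change in CTCFL-KD was 3.29 (SE 0.29, edgeR adjusted p = 2.0e-05). *COL4A5* rose from 24.6 ± 3.05 to 109 ± 43.8 CPM, with a log2 fold change of 2.15 (SE 0.30, edgeR adjusted p = 0.000374). The ratio of *COL4A5* to *COL4A6* per length was 17.4, 25.6 and 21.3 in Control and 7.63, 10.4 and 10.1 in CTCFL-KD, so both genes of the pair were higher and *COL4A6* by the larger factor. *COL4A3* and *COL4A4*, the chains of kidney and lung basement membranes, stayed under 1 CPM in every library.

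The promoters of these pairs are printed because each pair shares its upstream region while its members differed in size of change. The windows run from 250 bases before to 50 bases after the RefSeq start in GRCh38.p14, read 5′ to 3′ in the direction of the gene. Capitals mark the letters AGGGGGC on either strand (GCCCCCT where it lies on the other strand), the part shared by both listed sites. The windows are chr13:110307034-110307333 on the plus strand for *COL4A2*, chrX:108439588-108439887 on the plus strand for *COL4A5* and chrX:108439409-108439708 on the minus strand for *COL4A6*. The copy in the *COL4A2* window is also in that of *COL4A1*, which overlaps it, and the *COL4A5* and *COL4A6* windows hold none.
COL4A2: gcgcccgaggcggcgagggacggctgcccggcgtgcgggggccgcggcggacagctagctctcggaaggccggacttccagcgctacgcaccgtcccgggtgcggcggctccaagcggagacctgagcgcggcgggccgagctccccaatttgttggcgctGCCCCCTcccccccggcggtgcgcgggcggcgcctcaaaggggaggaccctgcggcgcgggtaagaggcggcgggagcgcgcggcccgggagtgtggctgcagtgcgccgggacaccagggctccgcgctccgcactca
COL4A5: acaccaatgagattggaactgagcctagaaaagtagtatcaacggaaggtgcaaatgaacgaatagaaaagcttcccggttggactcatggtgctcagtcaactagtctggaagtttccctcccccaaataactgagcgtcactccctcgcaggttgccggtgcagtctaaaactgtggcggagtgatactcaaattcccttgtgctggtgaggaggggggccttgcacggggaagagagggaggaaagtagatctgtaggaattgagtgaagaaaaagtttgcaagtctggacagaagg
COL4A6: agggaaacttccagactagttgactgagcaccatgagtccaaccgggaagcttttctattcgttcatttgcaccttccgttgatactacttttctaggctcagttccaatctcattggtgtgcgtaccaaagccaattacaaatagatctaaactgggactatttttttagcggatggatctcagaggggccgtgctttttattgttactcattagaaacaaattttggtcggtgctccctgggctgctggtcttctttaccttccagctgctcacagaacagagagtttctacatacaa

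Collagen VI forms beaded microfibrils in most connective tissues. Of its 5 genes, the 2 that were tested both rose in CTCFL-KD, beside 21.4% of all genes higher and 16.8% lower. *COL6A1* had 18.4 ± 1.77 CPM in Control and 88.1 ± 12.9 CPM in CTCFL-KD, with a log2 fold change of 2.26 (SE 0.25, edgeR adjusted p = 8.7e-05). *COL6A2* went from 15.5 ± 0.209 to 64.1 ± 17.01 CPM, with a log2 fold change of 2.05 (SE 0.28, edgeR adjusted p = 0.000344). The third chain of the classical trimer, *COL6A3*, had at most 1 count in any library. *COL6A1* and *COL6A2* lie 93061 bases apart on chromosome 21, and *COL18A1*, which lies 468049 bases from *COL6A1*, rose in CTCFL-KD as well, from 412 ± 9.46 to 1194 ± 111 CPM with a log2 fold change of 1.53 (SE 0.20, edgeR adjusted p = 0.000252). Exons of *SLC19A1* on the opposite strand cover 18.5% of the exon bases of *COL18A1*.

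Of the 6 FACIT collagens tested, 3 rose and 1 fell in CTCFL-KD, beside 21.4% and 16.8% of all genes. *COL21A1*, a FACIT collagen of vessel walls, had 1.85, 2.41 and 1.87 CPM in Control, against 3.97, 4.23 and 4.92 after overexpression and 21.6, 44.9 and 44.2 after knockdown. The 3 groups did not overlap, and the log2 fold change was 1.08 (SE 0.30, edgeR adjusted p = 0.108) in CTCFL-OE, which did not pass, and 4.17 (SE 0.30, edgeR adjusted p = 6.9e-06) in CTCFL-KD. *COL9A1*, a chain of the cartilage collagen IX, had 1, 1 and 0 counts in Control and 3.61, 3.98 and 2.96 CPM in CTCFL-KD, a ratio of summed counts of 114 with a 95% counting interval of 31.1 to 950.4 (edgeR adjusted p = 1.2e-05). *COL9A2*, its partner and the FACIT gene with the highest level per length in Control and CTCFL-OE, went the other way, from 63.8 ± 6.996 to 39.8 ± 9.38 CPM with a log2 fold change of -0.68 (SE 0.22, edgeR adjusted p = 0.0329). With the replicate number as a block, the edgeR adjusted p of *COL9A2* was 0.0501, and without Control replicate 1 or 2 or CTCFL-KD replicate 2 or 3 it was between 0.094 and 0.101. *COL12A1*, a FACIT collagen of tendon and fascia, passed the test in CTCFL-KD at a log2 fold change of 0.94 (SE 0.33, edgeR adjusted p = 0.0421), though replicate 1 at 97.9 CPM lay within the Control range of 96.96 to 122 CPM. Its call was lost on leaving out any library of the comparison but that one, with edgeR adjusted p between 0.0843 and 0.132.

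*COL23A1*, a transmembrane collagen that is shed from the cell surface, lies at chr5:178237476-178590393 and had the highest fitted log2 fold change among matrix genes above 3 counts in each Control library. It had 1.15, 1.13 and 1.01 CPM in Control, against 2.19, 1.83 and 2.21 after overexpression and 69.9, 55.2 and 56.1 after knockdown. The 3 groups of *COL23A1* did not overlap and its log2 fold change in CTCFL-KD was 5.77 (SE 0.21, edgeR adjusted p = 1.4e-07). Its rank per length among the 74 genes was 42 in Control and in CTCFL-OE and 14 in CTCFL-KD. *COL25A1*, a neuronal transmembrane collagen, rose in CTCFL-KD with a log2 fold change of 1.42 (SE 0.39, edgeR adjusted p = 0.0143), a call that was lost without Control replicate 1 or 2 or CTCFL-KD replicate 3 (edgeR adjusted p of 0.0565, 0.0602 and 0.0611). The promoters of *COL23A1* and *COL17A1*, which moved most in opposite directions within this class, are chr5:178590344-178590643 and chr10:104085831-104086130, both on the minus strand, printed as above.
COL23A1: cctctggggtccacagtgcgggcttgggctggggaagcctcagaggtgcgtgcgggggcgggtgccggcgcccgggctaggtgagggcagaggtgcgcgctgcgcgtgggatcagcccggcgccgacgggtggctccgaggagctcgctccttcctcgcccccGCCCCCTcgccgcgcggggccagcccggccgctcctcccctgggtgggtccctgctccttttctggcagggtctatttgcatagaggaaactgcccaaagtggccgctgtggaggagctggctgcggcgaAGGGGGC
COL17A1: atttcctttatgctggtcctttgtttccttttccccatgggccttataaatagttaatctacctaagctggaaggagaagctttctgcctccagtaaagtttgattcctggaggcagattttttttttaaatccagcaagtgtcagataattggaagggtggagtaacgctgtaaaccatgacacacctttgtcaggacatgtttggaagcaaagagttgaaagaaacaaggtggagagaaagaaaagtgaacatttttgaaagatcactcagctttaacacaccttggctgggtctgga

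Of the remaining collagens, *COL7A1*, which forms the fibrils that anchor the basement membrane of skin, fell in CTCFL-KD from 20.6 ± 3.29 to 5.62 ± 1.85 CPM with a log2 fold change of -1.89 (SE 0.34, edgeR adjusted p = 0.00178). *COL28A1*, a collagen of peripheral nerve, rose from 1.43 ± 0.330 to 4.91 ± 0.763 CPM with a log2 fold change of 1.78 (SE 0.28, edgeR adjusted p = 0.000744). The short-chain collagen gene *COL8A2*, a component of the basement membrane of the cornea, had a log2 fold change of 1.30 (SE 0.41, edgeR adjusted p = 0.0283) in CTCFL-KD. The call of *COL8A2* was lost without Control replicate 1 or 2 or CTCFL-KD replicate 2 or 3, with edgeR adjusted p between 0.0813 and 0.117. Its partner *COL8A1*, the higher of the pair per length in Control and CTCFL-OE and the lower in CTCFL-KD, had 1.79 ± 0.233 CPM in Control and 0.701 ± 0.249 CPM in CTCFL-KD and did not pass (edgeR adjusted p = 0.0756).

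In CTCFL-KD the laminin alpha chain genes *LAMA3* and *LAMA2* fell, *LAMA1* and *LAMA4* rose and *LAMA5* did not pass the test. *LAMA3*, the alpha chain of laminin-332, which epithelial cells use in hemidesmosomes, lies at chr18:23689453-23956222 and had 756, 885 and 828 CPM in Control, against 1098, 1420.2 and 1791 after overexpression and 47.4, 81.3 and 92.02 after knockdown. The CTCFL-OE libraries lay above Control and the CTCFL-KD libraries far below. The log2 fold change was 0.80 (SE 0.27, edgeR adjusted p = 0.171) in CTCFL-OE, which did not pass, and -3.48 (SE 0.30, edgeR adjusted p = 1.8e-05) in CTCFL-KD. *LAMA5*, the broadly expressed alpha chain of laminin-511 and laminin-521, had 842 ± 30.9 CPM in Control and 909 ± 91.8 CPM in CTCFL-KD, with a log2 fold change of 0.11 (SE 0.22, edgeR adjusted p = 0.715), which turned to -0.25 with length and GC offsets. Per length, *LAMA5* relative to *LAMA3* was 1.03, 0.923 and 0.920 in Control, against 0.799, 0.916 and 0.749 after overexpression and 15.8, 10.8 and 9.92 after knockdown. *LAMA3* thus made up 50.4 ± 1.56% (SD, n = 3) of the alpha chain level per length in Control, against 54.1 ± 2.51% after overexpression and 6.82 ± 1.38% after knockdown.

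*LAMA1* made up 1.05 ± 0.0904% of the alpha chain level per length in Control and 11.1 ± 1.33% in CTCFL-KD. *LAMA4*, an alpha chain of vessel walls and fat, had 1.95, 1.67 and 1.47 CPM in Control, against 3.24, 2.67 and 2.46 after overexpression and 12.2, 13.9 and 14.2 after knockdown. The groups of *LAMA4* did not overlap, and its log2 fold change in CTCFL-KD was 2.98 (SE 0.21, edgeR adjusted p = 5.3e-06). *LAMA2*, the alpha chain of muscle, fell in CTCFL-KD from 2.16 ± 0.445 to 0.901 ± 0.319 CPM with a log2 fold change of -1.21 (SE 0.37, edgeR adjusted p = 0.0238), a call lost without Control replicate 1 or 3 (edgeR adjusted p of 0.056 and 0.0877).

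Among the beta chains, *LAMB1* and *LAMB2* rose in CTCFL-KD and *LAMB3* fell. *LAMB2*, which replaces *LAMB1* in mature basement membranes, went from 186 ± 7.47 to 496 ± 73.2 CPM, with a log2 fold change of 1.41 (SE 0.24, edgeR adjusted p = 0.00107). *LAMB1* went from 113 ± 6.39 to 241 ± 20.1 CPM, with a log2 fold change of 1.09 (SE 0.21, edgeR adjusted p = 0.00254). *LAMB3*, the beta chain of laminin-332, went from 107 ± 5.12 to 53.2 ± 12.6 CPM, with a log2 fold change of -1.01 (SE 0.32, edgeR adjusted p = 0.0275). The call of *LAMB3* was lost without any 1 Control library or without CTCFL-KD replicate 2 or 3, with edgeR adjusted p between 0.0551 and 0.0842. Its share of the beta chain level per length was 33.3 ± 0.435% in Control, against 24.2 ± 4.03% after overexpression and 9.05 ± 1.24% after knockdown.

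*LAMC1*, the gamma chain of most laminins, had 311, 358 and 363 CPM in Control and 333, 681 and 658 CPM in CTCFL-KD. CTCFL-KD replicate 1 of *LAMC1* lay within the Control range, and the log2 fold change was 0.70 (SE 0.28, edgeR adjusted p = 0.0706). It passed with the replicate block (edgeR adjusted p = 0.0467) and without CTCFL-KD replicate 1 (edgeR adjusted p = 0.00127).

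**Figure D3:**
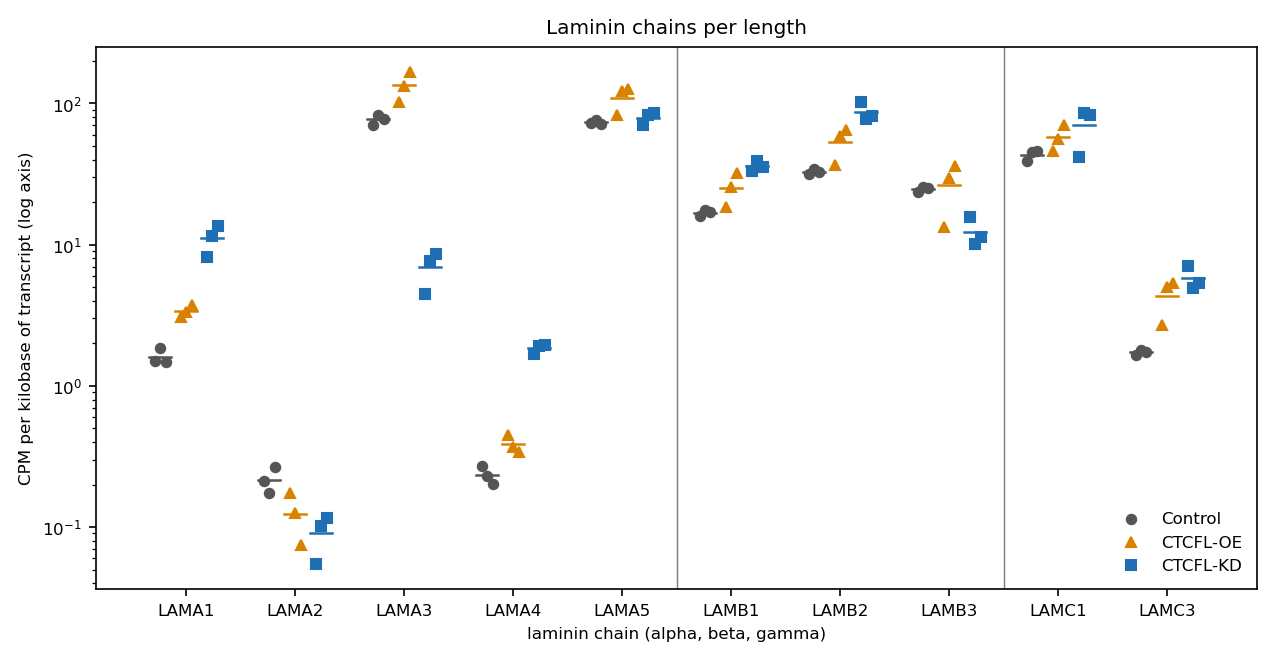
Level of the laminin chain genes per kilobase of longest transcript in each library (y axis, CPM per kilobase on a log scale), with points for the 3 libraries of each group and a line at the group mean. LAMA3 lies far below its Control libraries in CTCFL-KD while LAMA5 overlaps with its own, and LAMA1 and LAMA4 are highest in CTCFL-KD.

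Of the 4 linkers of the basement membrane tested, none passed in CTCFL-OE and 1 in CTCFL-KD, no more than the shares of all genes, 3.15% and 38.2%. *NID2*, a nidogen that bridges laminin and collagen IV, fell in CTCFL-KD from 17.9 ± 1.16 to 8.70 ± 3.73 CPM with a log2 fold change of -1.03 (SE 0.36, edgeR adjusted p = 0.0443). The call was lost without any 1 Control library or CTCFL-KD replicate 1, with edgeR adjusted p between 0.072 and 0.102. Exons of *RTRAF* on the opposite strand cover 30.7% of the exon bases of *NID2*. *AGRN* had 1337, 1375 and 1373 CPM in Control and 2024, 2216 and 2163 CPM in CTCFL-KD, with no overlap and a log2 fold change of 0.65 (SE 0.24, edgeR adjusted p = 0.0506). With the replicate block *AGRN* passed, at an edgeR adjusted p of 0.0477, and without CTCFL-KD replicate 1 it passed at 0.0208. *NID1* and *HSPG2* did not pass in either comparison with all libraries. Without CTCFL-KD replicate 1 both passed in CTCFL-KD, with log2 fold changes of 0.86 for *NID1* (SE 0.31, edgeR adjusted p = 0.0379) and 0.94 for *HSPG2* (SE 0.22, edgeR adjusted p = 0.00607). Without CTCFL-OE replicate 1, *NID1*, *NID2* and *AGRN* passed in CTCFL-OE, with edgeR adjusted p between 0.052 and 0.0595.

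*FBN2*, the fibrillin of developing tissues and the elastic fibre gene with the highest level per length in CTCFL-KD, rose in CTCFL-KD from 195 ± 22.8 to 927 ± 368 CPM with a log2 fold change of 2.25 (SE 0.30, edgeR adjusted p = 0.000286). Its rank per length went from 15 in Control, behind the fibulin gene *FBLN1* at 10, to 5 in CTCFL-KD, whereas *FBN1*, the fibrillin of adult tissues, had a log2 fold change of -0.37 (SE 0.40, edgeR adjusted p = 0.481). *FBLN2* went from 7.79 ± 0.428 to 33.05 ± 1.54 CPM, with a log2 fold change of 2.08 (SE 0.19, edgeR adjusted p = 2.5e-05). *FBLN5* rose in CTCFL-KD as well, with a log2 fold change of 1.24 (SE 0.23, edgeR adjusted p = 0.00185). *ELN*, encoding elastin, the core of elastic fibres, stayed under 1 CPM in every library.

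*TNC*, a glycoprotein of wound and tumour matrix, had 55.1, 63.6 and 58.9 CPM in Control, against 56.4, 50.8 and 56.5 after overexpression and 141, 298 and 272 after knockdown. Its CTCFL-OE libraries overlapped with Control, its CTCFL-KD libraries lay above both, and the log2 fold change in CTCFL-KD was 2.00 (SE 0.26, edgeR adjusted p = 0.000228). *POSTN*, encoding periostin, a glycoprotein of stroma and wounds, had 2, 1 and 5 counts in Control and 9, 18 and 13 counts in CTCFL-KD, with a log2 fold change of 2.74 (SE 0.55, edgeR adjusted p = 0.00295). *SPARC*, a collagen-binding glycoprotein, passed in neither comparison with Control, but its log2 fold change in CTCFL-OE, 0.77 (SE 0.21, edgeR adjusted p = 0.104), lay near the threshold and passed under 11 of 18 other settings. In CTCFL-KD *SPARC* passed under 1 of 18, DESeq2 on the 2 groups compared (DESeq2 adjusted p = 0.022). Among the proteoglycans *BGN*, encoding biglycan, a small leucine-rich proteoglycan, rose in CTCFL-KD with a log2 fold change of 0.92 (SE 0.30, edgeR adjusted p = 0.0306), a call that was lost without any 1 Control library or CTCFL-KD replicate 1, with edgeR adjusted p between 0.0668 and 0.105. *VCAN*, encoding versican, a large proteoglycan that binds hyaluronan, had 93.9 ± 13.6 CPM in Control and 47.7 ± 24.1 CPM in CTCFL-KD. It did not pass with a log2 fold change of -0.97 (SE 0.39, edgeR adjusted p = 0.0669), and passed with the replicate block, at -1.12 (edgeR adjusted p = 0.00998), without CTCFL-KD replicate 3, at -1.22 (edgeR adjusted p = 0.0491), and under 6 of 18 other settings in all.

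The altered groups were also compared with each other, with 30 of the 55 genes past the adjusted p of 0.05, 20 higher and 10 lower in CTCFL-KD than in CTCFL-OE, against 26.8% of all genes, 15.3% higher and 11.5% lower. Of these, 29 were DEGs, 19 higher and 10 lower, against 17.0% of all genes, 10.6% higher and 6.42% lower. The libraries did not overlap in 29 of the 55 genes, 20 on the higher and 9 on the lower side, against 39.8% of all genes, 20.3% and 19.5%. *LAMA3* differed most among those lower in CTCFL-KD, with a log2 fold change of -4.29 (SE 0.31, edgeR adjusted p = 1.5e-05). *NID2*, *COL27A1* and *SPARC* were lower too, with log2 fold changes of -2.11, -1.81 and -1.12. Of the genes that were DEGs in both comparisons with Control, *LAMA1* was higher in CTCFL-KD than in CTCFL-OE (1.72, SE 0.21, edgeR adjusted p = 0.000234) and *COL17A1* was lower (-1.35, SE 0.28, edgeR adjusted p = 0.00574). *FN1*, *COL26A1* and *LAMC3* did not pass, with log2 fold changes of -0.31 (SE 0.38), 0.21 (SE 0.20) and 0.41 (SE 0.25).

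The other 19 matrix genes did not pass the filter on low counts, and none reached more than 0.922 CPM in any library, the value of *COL24A1*. They are *COL3A1*, *COL5A1*, *COL5A3*, *COL24A1*, *COL4A3*, *COL6A3*, *COL6A5*, *COL6A6*, *COL14A1*, *COL19A1*, *COL20A1*, *COL22A1*, *COL13A1*, *COL15A1*, *COL10A1*, *LAMB4*, *ELN*, *DCN* and *LUM*. *COL6A5* and *COL22A1* had 0 counts in all 9 libraries. *COL3A1*, the usual companion of collagen I in soft tissues, had 0 counts in all Control and CTCFL-OE libraries and 8, 9 and 8 counts in CTCFL-KD, at least 4.05-fold higher than Control at 3 counts per library. The genes of decorin and lumican, *DCN* and *LUM*, by which fibroblasts are often recognised, had at most 0.438 CPM.

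Collagens are modified, cut and cross-linked by a set of enzymes, of which 31 were tested. In CTCFL-OE, where 3.15% of all genes were called, 1 rose, *ADAMTS14*, which removes the amino-terminal propeptide of fibrillar collagens, from 2.55 ± 0.352 to 10.3 ± 1.25 CPM (log2 fold change 2.00, SE 0.24, edgeR adjusted p = 0.00475). The next by adjusted p, *PCOLCE2*, an enhancer of propeptide removal, and *P3H3*, a prolyl hydroxylase, had log2 fold changes of 0.81 and 1.22 and did not pass. In CTCFL-KD 18 rose and 6 fell, where 21.4% of all genes were called higher and 16.8% lower. Among them *LOXL1*, a cross-linking enzyme, went from 21.2 ± 1.21 to 117 ± 39.9 CPM (log2 fold change 2.47, SE 0.24, edgeR adjusted p = 4.1e-05), *COLGALT2*, which adds galactose to collagens, had a log2 fold change of 2.79, and *TLL2*, a protease of the tolloid family, had one of -3.11. These 3 also had the smallest adjusted p of the list between CTCFL-KD and CTCFL-OE, with log2 fold changes of 1.98 for *LOXL1*, 2.21 for *COLGALT2* and -2.25 for *TLL2*.

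Of 23 receptors for matrix proteins tested, 2 fell and none rose in CTCFL-OE, and 10 rose and 5 fell in CTCFL-KD, against 3.15% and 38.2% of all genes called in the respective comparisons. *ITGB6*, the integrin chain that pairs with alpha v in epithelia, went from 158 ± 1.52 to 35.2 ± 9.91 CPM in CTCFL-OE (log2 fold change -2.17, SE 0.24, edgeR adjusted p = 0.00350). In CTCFL-KD it reached 10.8 ± 2.34 CPM (log2 fold change -3.86, SE 0.26, edgeR adjusted p = 4.5e-06). *ITGB3*, another partner of alpha v, fell in both as well, with log2 fold changes of -1.25 and -4.57. *ITGA9*, an integrin chain that binds tenascin, had a log2 fold change of -0.76 in CTCFL-OE and did not pass there. *BCAM*, a receptor for laminin alpha 5, rose in CTCFL-KD from 207 ± 9.66 to 842 ± 105 CPM (log2 fold change 2.02, SE 0.22, edgeR adjusted p = 6.3e-05). Between CTCFL-KD and CTCFL-OE the smallest adjusted p belonged to *ITGB3*, with a log2 fold change of -3.32, the collagen receptor gene *DDR2*, with 3.82, and *BCAM*, with 1.57.

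Of 18 matrix proteases and inhibitors tested, 2 rose and 3 fell in CTCFL-OE, and 7 rose and 3 fell in CTCFL-KD, beside the same shares of all genes, 3.15% and 38.2%. The 3 that fell in CTCFL-OE were *MMP10*, *MMP1* and *MMP7*, secreted metalloproteases, with log2 fold changes of -2.68, -2.10 and -2.40. In CTCFL-KD *MMP1* fell as well, with a log2 fold change of -2.58, and *MMP7* fell from 20.8 ± 1.34 to 0.333 ± 0.346 CPM (log2 fold change -6.13, SE 0.47, edgeR adjusted p = 9.2e-06). *MMP2*, the gelatinase that degrades collagen IV, fell in CTCFL-KD from 91.1 ± 1.72 to 13.6 ± 4.28 CPM (log2 fold change -2.75, SE 0.35, edgeR adjusted p = 0.000197). Between CTCFL-KD and CTCFL-OE, *MMP10* was higher in CTCFL-KD with a log2 fold change of 2.29, and *MMP2* and *MMP7* were lower with -2.68 and -3.73. The median log2 fold changes in CTCFL-OE and CTCFL-KD were 0.46 and 0.89 for the enzymes, 0.26 and 0.41 for the receptors and 0.30 and 0.50 for the proteases and inhibitors, beside -0.01 and 0.08 for all genes tested.

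RefSeq promoters matched 55 of the 74 matrix genes. The 7 letters AGGGGGC were found on either strand in 20 of these 55 windows, or 36.4%, against 14.4% of all 35116 promoters and 19.9% of the 11958 promoters of genes tested. The windows of the matrix genes had a median GC content of 66.7%, those of genes tested 65.3% and all promoters 58.7%. Of the matrix genes that rose in CTCFL-KD and had a window, 11 of 23 held the letters, and of those that fell, 2 of 9. The letters were taken from the listed sites of *COL26A1* and *LAMC3*, which are matrix genes, so their share among matrix genes is not an independent result. The listed *COL26A1* site is itself counted among the 20 and among the 11. *COL4A1* and *COL4A2* are counted separately for the same copy. A match of letters is a description of the window and does not show that CTCFL binds there.

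**Figure D4:**
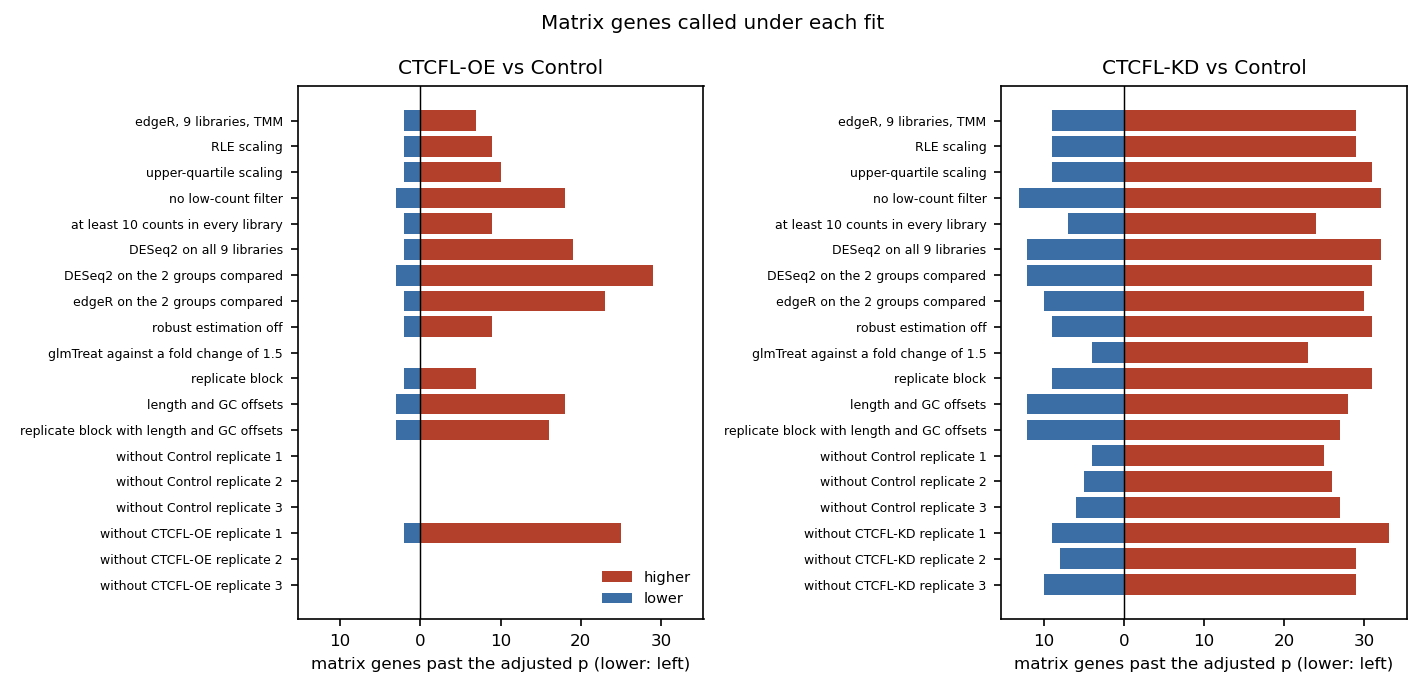
Number of matrix genes past the adjusted p (x axis) that were higher or lower than Control under each way of fitting the counts (y axis), for CTCFL-OE (left) and CTCFL-KD (right). In CTCFL-OE the number runs from 0 to 32, and in CTCFL-KD it stays between 27 and 45.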

How the data were processed

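RNA-seq was measured in 9 OVCAR3 libraries, with 3 in each of the 3 groups. The authors deposited raw counts per gene. Per the methods, reads were trimmed with Trimmomatic, aligned to GRCh38 with STAR and counted with featureCounts, and the submitters' processing notes list kallisto too. The annotation release, strand setting and treatment of reads with several alignments are not given in the sources used here. Identifiers were named with GENCODE 44 (60419 of 60660). All 9 per-library files equalled their matrix columns.

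Genes passing filterByExpr (17794) were TMM-scaled and tested with edgeR 4.0.16 in R 4.3.3 (quasi-likelihood, robust, all 9 libraries, group only), with Benjamini-Hochberg adjustment over all genes tested. Following the methods, genes were called at an adjusted p under 0.05, or under 0.1 where CTCFL-OE was set against Control, and DEGs also needed a log2 fold change beyond 1. The SE was taken as the size of the fitted log2 fold change over the root of its F statistic. A count of 0 was bounded by 3 counts per library, and ratios of summed counts carry 95% intervals. Floors and intervals cover counting error only. CPM per kilobase used the longest GENCODE transcript. The fits were tested on simulated data.

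Named genes are the DEGs of either comparison with Control, the markers *COL1A2*, *COL5A2*, *LAMA1* and *FN1*, the member with the highest level per length in each role, and from each enzyme, receptor or protease list the 3 with the smallest adjusted p in each comparison. Other genes that are named were chosen after their values were seen. The values of 1 matrix gene that entered the counts are not reported or drawn here. The matrix genes and lists were chosen with earlier results of these data known. Replicate numbers come from the sample titles. Across 13537 genes, Control and CTCFL-KD libraries of the same number had deviations from their group means that correlated at 0.322, 0.184 and 0.219, and at 0.144, 0.122 and 0.128 with the trends on transcript length and GC removed. Fits with the replicate number as a block were therefore added to the group-only fit, and their values are given where they change a call. The titles do not say that a number marks a shared batch, and CTCFL-KD came from a separate experiment. A pass under the block is thus given as an alternative to the group-only fit, not in its place. The methods call the 3 biological replicates of Control and CTCFL-OE independent, without saying whether they were separate cultures or passages. In every group p-values measure the spread between these libraries. Alternatives were RLE and upper-quartile scaling, other low-count filters, DESeq2 1.42.0, fits of the 2 groups compared, non-robust estimation, glmTreat at 1.5-fold, the replicate block, offsets for transcript length and GC, and leaving out each library. Python 3.11.15, pandas 2.3.3 and matplotlib 3.10.9 made the tables and figures.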

Additional observations from a re-analysis of the deposited data

How the results depend on the processing

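The CTCFL-OE counts depended on the settings more than the CTCFL-KD counts. Of 9 matrix genes called in CTCFL-OE, the count was 21 with no low-count filter, 21 with DESeq2 on all 9 libraries, 32 with DESeq2 on the 2 groups compared, 25 with edgeR on those groups, 21 with length and GC offsets and 19 with the replicate block and these offsets together. The same fits called 4.01%, 3.63%, 10.5%, 20.2%, 10.3% and 9.42% of all genes, against 3.15%, and tested 72, 72, 70, 51, 55 and 55 matrix genes, so calls rose over all genes too. With glmTreat against a 1.5-fold change edgeR gave 0 calls and 0 DEGs, with 12 matrix genes at an unadjusted p under 0.05, and called 0.287% of all genes. Leaving out 1 library gave between 0 and 27 calls and between 0 and 11 DEGs against 6, and no low-count filter gave 10 DEGs. The 8 calls in the enzyme, receptor and protease lists became 16 with no filter, 17 with DESeq2 on all 9 libraries, 26 with DESeq2 on the 2 groups, 16 with the offsets and between 5 and 25 without 1 library. Counts in CTCFL-KD vs Control (38 called, 29 to 42 without 1 library) and CTCFL-KD vs CTCFL-OE (30 called, 26 to 37) stayed within 1.5 times under the settings run. With the length and GC offsets, *COL26A1*, *COL4A2* and *LAMB1* in CTCFL-KD, *COL26A1* and *LAMA1* in CTCFL-OE and *COL18A1* in CTCFL-KD vs CTCFL-OE were no longer beyond the fold change that defines a DEG, while *COL21A1* and *NID2* in CTCFL-OE, *COL9A2* in CTCFL-KD and *COL8A1* in CTCFL-KD vs CTCFL-OE became DEGs. *COL8A2* lost its calls in CTCFL-KD vs Control and vs CTCFL-OE, and *COL2A1* lost its call in CTCFL-KD vs Control.

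The replicate block alone gave 9 calls and 7 DEGs in CTCFL-OE and 40 calls and 34 DEGs in CTCFL-KD, where *VCAN* became a DEG and *LAMB3*, still called, went under the fold change of a DEG. Over all genes this fit called 2.39% in CTCFL-OE and 36.9% in CTCFL-KD, against 3.15% and 38.2% with the group-only fit. DEGs were 1.70% and 22.6% of all genes. In CTCFL-OE, whose numbers did not pair with Control (correlations of -0.0353, 0.219 and -0.0517), the block gained *COL21A1* (edgeR adjusted p = 0.0912) and lost *FBLN5* (edgeR adjusted p = 0.138). In CTCFL-KD it changed no other call than those of *AGRN*, *LAMC1*, *VCAN* and *COL9A2* given above. In CTCFL-KD vs CTCFL-OE it lost *COL8A2* and *LAMB2* (edgeR adjusted p of 0.0735 and 0.0543).

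Direction turned for genes that passed in neither setting. In CTCFL-OE, *COL8A2* had -0.0557 with the offsets and -0.0333 with block and offsets, *LAMB3* had -0.0445 and -0.0797, *COL1A1* had -0.00477 and -0.00580, and *FBN1* had -0.00625 with block and offsets. In CTCFL-KD, *COL11A2* had 0.0206 with upper-quartile scaling and 0.000913 with at least 10 counts in every library, *COL4A1* had -0.0153 with block and offsets, and *LAMA5* had -0.25 with the offsets, with and without the replicate block. Without 1 library, log2 fold changes in CTCFL-OE ran from -0.11 to 0.28 for *COL4A6*, -0.54 to 0.14 for *COL7A1*, -0.44 to 0.70 for *COL8A1*, -0.26 to 0.39 for *COL8A2*, -0.0932 to 1.19 for *COL9A1*, -0.0341 to 0.37 for *COL1A1*, -0.27 to 0.40 for *FBN1*, -0.21 to 0.40 for *LAMB3* and -0.72 to 0.62 for *POSTN*, in CTCFL-KD from -0.30 to 0.23 for *COL11A2*, and in CTCFL-KD vs CTCFL-OE from -0.67 to 0.0331 for *FN1*. The causes were not tested.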
